A study of Mus musculus with 6 samples.

Results

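Potassium channel genes were taken as all protein-coding mouse genes whose symbol begins with Kcn in the GENCODE M21 annotation, and 94 of the 55450 gene identifiers measured fell under that rule. By subfamily letter, 40 of them encode voltage-gated pore subunits, 15 inward rectifiers, 14 two-pore subunits, 8 subunits of the calcium-activated group and 17 auxiliary proteins. Polyadenylated RNA of adult cerebral cortex was sequenced from 3 libraries labelled heterozygous for Setd5 and 3 labelled wild type. Setd5 encodes a protein with a SET domain that acts on chromatin, and loss of 1 copy in people is known as a cause of intellectual disability with autism. The labels name no strain, sex or exact age, do not describe the mutant allele, and do not say that each library came from a separate animal. The p-values below therefore measure the spread between these libraries, part of which may be technical.

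Potassium channels let potassium leave the cell, or in inward rectifiers hold it near its resting balance, and so set resting potential, spike width and firing rate. Voltage-gated channels open on depolarization, two-pore channels leak at rest, calcium-activated channels couple calcium entry to repolarization, and auxiliary subunits change gating or delivery to the membrane. In the cortex these genes are divided between neuron types, astrocytes and vessel cells, and variants in several of them cause epilepsy.

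The pore-forming classes share 1 feature that the symbol did not use, the selectivity filter, the stretch of the pore that tells potassium from sodium. It was searched for as 5 codons in a row, namely threonine or serine, any residue, glycine, tyrosine or phenylalanine, and glycine, in the longest complete coding sequence of each gene. All 77 pore-forming genes held such a run and 0 of the 17 auxiliary genes did, against 2.31% of 21479 other protein-coding genes, where a match is a description and not a pore. Of the 14 two-pore genes, 11 held 2 runs, and Kcnk1, Kcnk6 and Kcnk7 held 1 in this spelling. Phenylalanine took the place of tyrosine in all 8 Kcnh genes, and serine that of threonine in 7 of those 8 and in 3 of the 4 Kcnn genes. The sequences below are shown because they carry the shared core of the family, in genes that the values below come back to, with Kcnh7 as an example of the serine and phenylalanine spelling. Each is 45 bases of GENCODE M21 transcript sequence, 5′ to 3′ on the gene's own strand in GRCm38, and the 15 bases of the filter codons are in capitals.
Kcna2, chr3:107105209-107105253, plus strand, exon 3: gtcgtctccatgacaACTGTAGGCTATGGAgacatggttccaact
Kcng1, chr2:168262626-168262670, minus strand, exon 2: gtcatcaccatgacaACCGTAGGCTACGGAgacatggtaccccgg
Kcng4, chr8:119625895-119625939, minus strand, exon 3: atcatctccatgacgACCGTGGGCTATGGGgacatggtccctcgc
Kcnh7, chr2:62777328-62777372, minus strand, exon 8: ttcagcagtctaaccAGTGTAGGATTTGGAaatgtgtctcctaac
Kcnj8, chr6:142566433-142566477, minus strand, exon 3: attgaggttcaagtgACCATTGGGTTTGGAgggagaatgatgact
Kcnk9 pore 1, chr15:72513022-72546018 with an intron inside, minus strand, exons 1 and 2: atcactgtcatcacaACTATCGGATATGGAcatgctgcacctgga
Kcnk9 pore 2, chr15:72512704-72512748, minus strand, exon 2: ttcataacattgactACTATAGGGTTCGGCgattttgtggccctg
Kcnma1, chr14:23528398-23528442, minus strand, exon 8: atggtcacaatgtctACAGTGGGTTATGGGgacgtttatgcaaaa
Kcnn1, chr8:70850642-70850686, minus strand, exon 4: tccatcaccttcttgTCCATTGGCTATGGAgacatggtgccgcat
Of the 15 filter bases, 13 were the same as in Kcna2 in Kcng1, 12 in Kcng4 and Kcnh7, 11 in Kcnma1 and Kcnn1, and 10 in Kcnj8. The first pore of Kcnk9 shared 12 of the 15 with Kcna2 and its second pore 10.

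The libraries held 82850628 to 92860628 counts each. A gene's level is its count scaled to a common library total, as CPM, and the upper limit behind a count of 0 was 0.0323 to 0.0362 CPM over libraries, by counting error only. Setd5 itself stood at 69.5, 68.7 and 75.3 CPM in the heterozygous libraries, against 111, 96.9 and 107.5 CPM in the wild type libraries, a log2 difference of -0.56 (SE 0.07). Its adjusted p was 0.258 in edgeR's quasi-likelihood test and 2.81e-07 in DESeq2, and a two-sided exact permutation test gave 0.1, the smallest that 3 against 3 allows. Markers of cortical excitatory neurons were present in all libraries, the lowest of the list being Fezf2 with a mean of 27.7 CPM. Markers of striatal neurons summed to 315, 434 and 709 CPM in the heterozygous libraries and to 230, 411 and 1628 CPM in the wild type libraries. Wild type replicate 3, whose title has another form than those of the other libraries, thus stood apart on this list, and values without it are given below beside several of the results. Xist was counted 78747 times in heterozygous replicate 3 and 69096 times in wild type replicate 3, against 38 to 78 times in the remaining libraries. Values without wild type replicate 3 alone therefore keep a high Xist count in the heterozygous group only.

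Of the 94 potassium channel genes, 84 passed the filter on low counts, which keeps genes with about 10 counts in at least 3 libraries. Those that did not pass were Kcna7, Kcna10 and Kcnv2 of the voltage-gated class, Kcnj1 and Kcnj15 of the inward rectifiers, Kcnk7, Kcnk15, Kcnk16 and Kcnk18 of the two-pore class, and the auxiliary Kcne1. Their counts summed over all 6 libraries lay between 4 for Kcnj1 and 60 for Kcna10. Several of them are known from other organs, such as Kcnj1 from the kidney and Kcnv2 from the retina.

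Levels of different genes were compared as CPM per kilobase of merged exon. On that scale 33 genes averaged 10 or more, 33 between 1 and 10, 13 between 0.1 and 1, and 15 under 0.1. The two-pore gene Kcnk1, which encodes a weakly conducting background channel, had the highest level, with 69.5 ± 2.18 CPM per kb in heterozygous and 63.1 ± 5.24 in wild type libraries (SD, n = 3 each). Next came Kcnv1, a voltage-gated family member that forms no channel alone and modifies Kcnb channels, with 52.5 ± 5.34 CPM per kb in heterozygous and 52.5 ± 6.77 in wild type libraries. The log2 differences between genotypes were 0.14 (SE 0.07) for Kcnk1 and -0.00041 (SE 0.11) for Kcnv1.

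Summed over a class, the voltage-gated genes held 367 ± 20.3 CPM per kb in heterozygous and 363 ± 11.5 in wild type libraries, or 41.3% ± 0.424 and 41.7% ± 0.614 of the family's total (SD, n = 3 each). Auxiliary genes summed to 186 ± 8.26 CPM per kb in heterozygous and 181 ± 18.1 in wild type libraries, and inward rectifiers to 167 ± 7.60 in heterozygous and 171 ± 12.2 in wild type libraries. For these 3 classes the genotypes overlapped. The two-pore sum was 118, 113 and 110 CPM per kb in heterozygous libraries, against 101, 108 and 108.4 in wild type libraries, and Kcnk1 alone supplied most of it. The calcium-activated sum was 53.7, 52.6 and 54.2 CPM per kb in heterozygous libraries, against 51.4, 48.6 and 50.8 in wild type libraries, with Kcnma1 as its largest member. These last 2 sums did not overlap between genotypes. Among single genes this was the case for 11.7% of all 27939 tested, and no such share was counted for sums of genes. As a percentage of the family's total both overlapped, the two-pore share lying between 12.7 and 12.9% in heterozygous and 11.8 and 12.9% in wild type libraries, and the calcium-activated share between 5.78 and 6.38% in heterozygous and 5.55 and 5.98% in wild type libraries. In whole tissue, fewer cells of a type and less RNA per cell cannot be told apart.

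**Figure D1:**
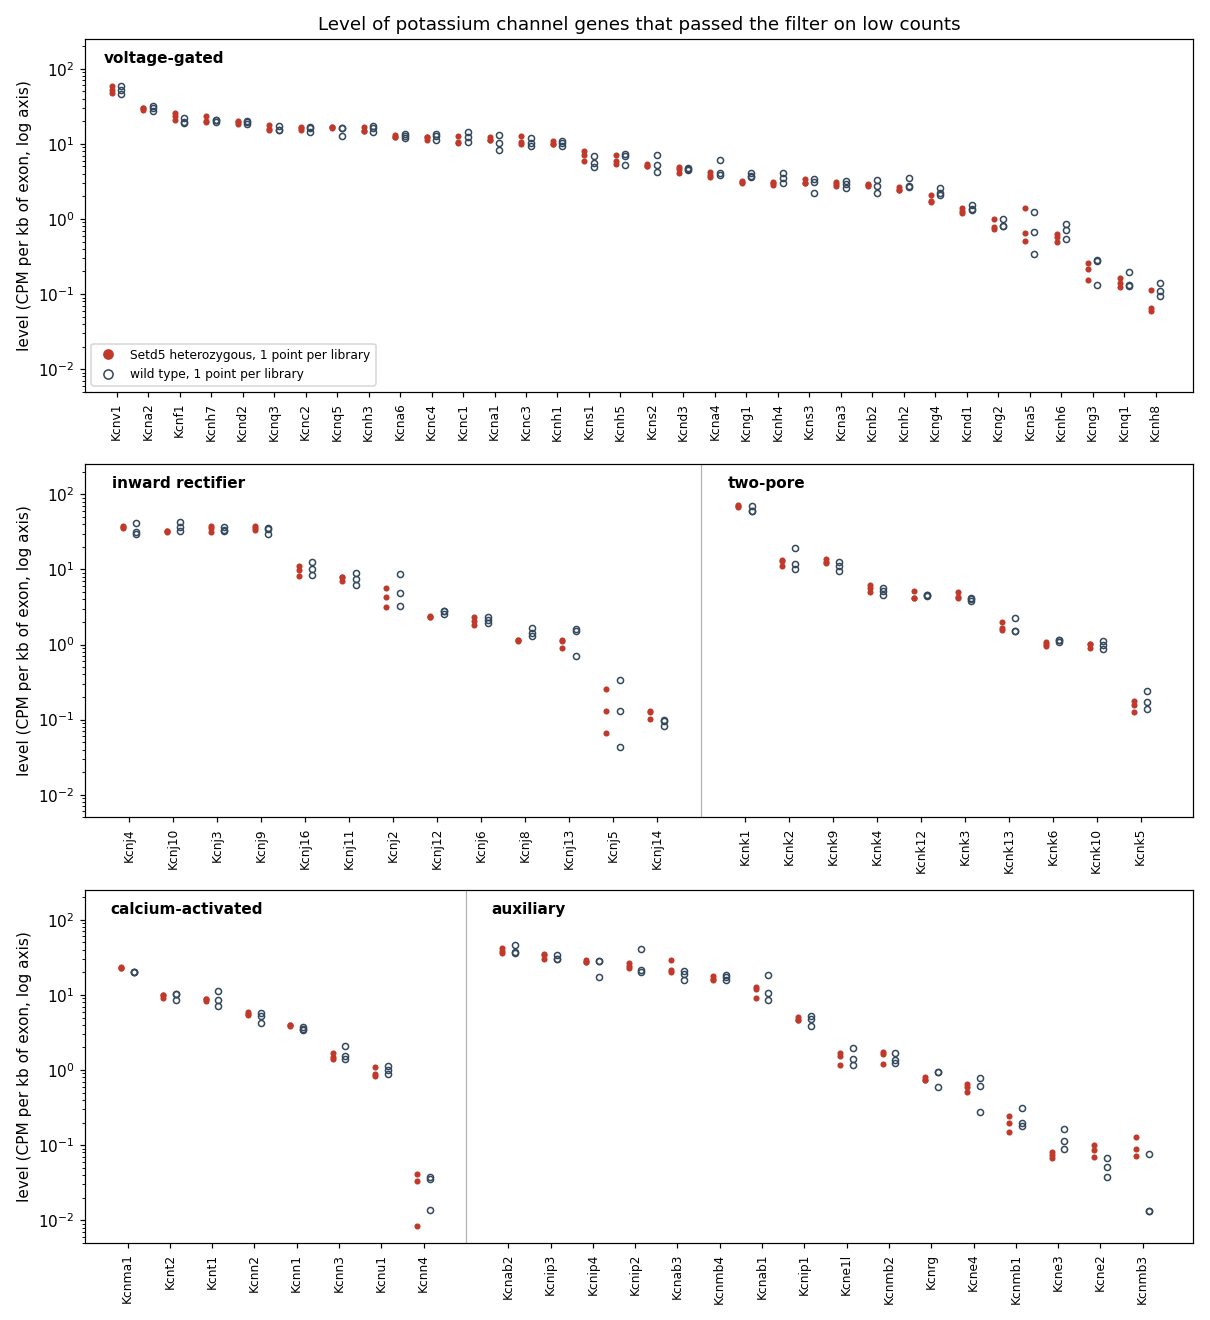
Level of 81 of the 84 tested potassium channel genes in CPM per kb of exon (log axis), by class and in falling order of mean level. Each filled point is 1 heterozygous library and each open point 1 wild type library; Kcnk1 and Kcnv1 lie highest, and for most genes the 2 sets of points cover the same range.

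No potassium channel gene passed the test between genotypes. edgeR's quasi-likelihood test with Benjamini-Hochberg adjustment over 27939 genes called 0 of the 84, against 0% of all genes, and the smallest adjusted p in the family was 0.789. DESeq2 called 0 of the 79 members for which it gave an adjusted p, against 0.28% of 22512 genes, with a smallest value of 0.233. Its unadjusted p was under 0.05 in 8 of 84 members, or 9.52%, against 5.56% of all genes. At an unadjusted p under 0.05 edgeR counted 7 of 84 members, or 8.33%, against 5.83% of all genes tested. Of these, 3 stood above wild type (background 2.44%) and 4 below it (background 3.38%). In 10 of 84 members the 3 heterozygous values lay all above or all below the 3 wild type values, which is 11.9% against 11.7% of all genes. It was 5 members above wild type (background 5.88%) and 5 below it (background 5.85%). Both conditions held for 4 members, or 4.76%, against 4.78% of all genes. The shares without overlap were thus close to the background, and the differences between shares were not tested.

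Differences in the family were mostly small. The median of the fitted log2 differences was -0.02 over the 84 members and -0.00053 over all genes, and the median of their absolute size was 0.116 in both. Among genes with a mean of 5 CPM or more, that median size was 0.0891 over 62 members and 0.0692 over 13661 genes. Fitted differences were above 0 in 34 members and below 0 in 50, against 49.9% above 0 over all genes. By class, the medians were -0.02 for 37 voltage-gated genes, -0.11 for 13 inward rectifiers, -0.01 for 10 two-pore genes, -0.03 for 8 calcium-activated genes and 0.01 for 16 auxiliary genes. Among subfamilies, all 4 Kcng genes and 7 of the 8 Kcnh genes had fitted differences below 0, with medians of -0.22 and -0.15. Without wild type replicate 3 this held for 3 of the 4 and 4 of the 8, with medians of -0.15 and -0.04. The Kcng proteins are silent subunits that modify Kcnb channels, and the Kcnh group holds the ether-a-go-go channels.

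The depth allowed narrow limits for well expressed members. Of the 62 with a mean of 5 CPM or more, 54 had a 95% interval that stayed within 1.5-fold either way, which is 87.1% against 95% of 13661 genes at that level. Over all 84 the count was 59, or 70.2% against 56.5% of all genes. For Kcnd2, the pore subunit of dendritic A-type current, the interval of the log2 difference ran from -0.14 to 0.15. It ran from -0.17 to 0.15 for the axonal channel Kcna2 and from -0.14 to 0.22 for Kcnq3, a subunit of the M-current. The widest intervals belonged to rare genes, such as Kcnj5 with a mean under 1 CPM in both genotypes and an interval from -1.63 to 1.31.

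**Figure D2:**
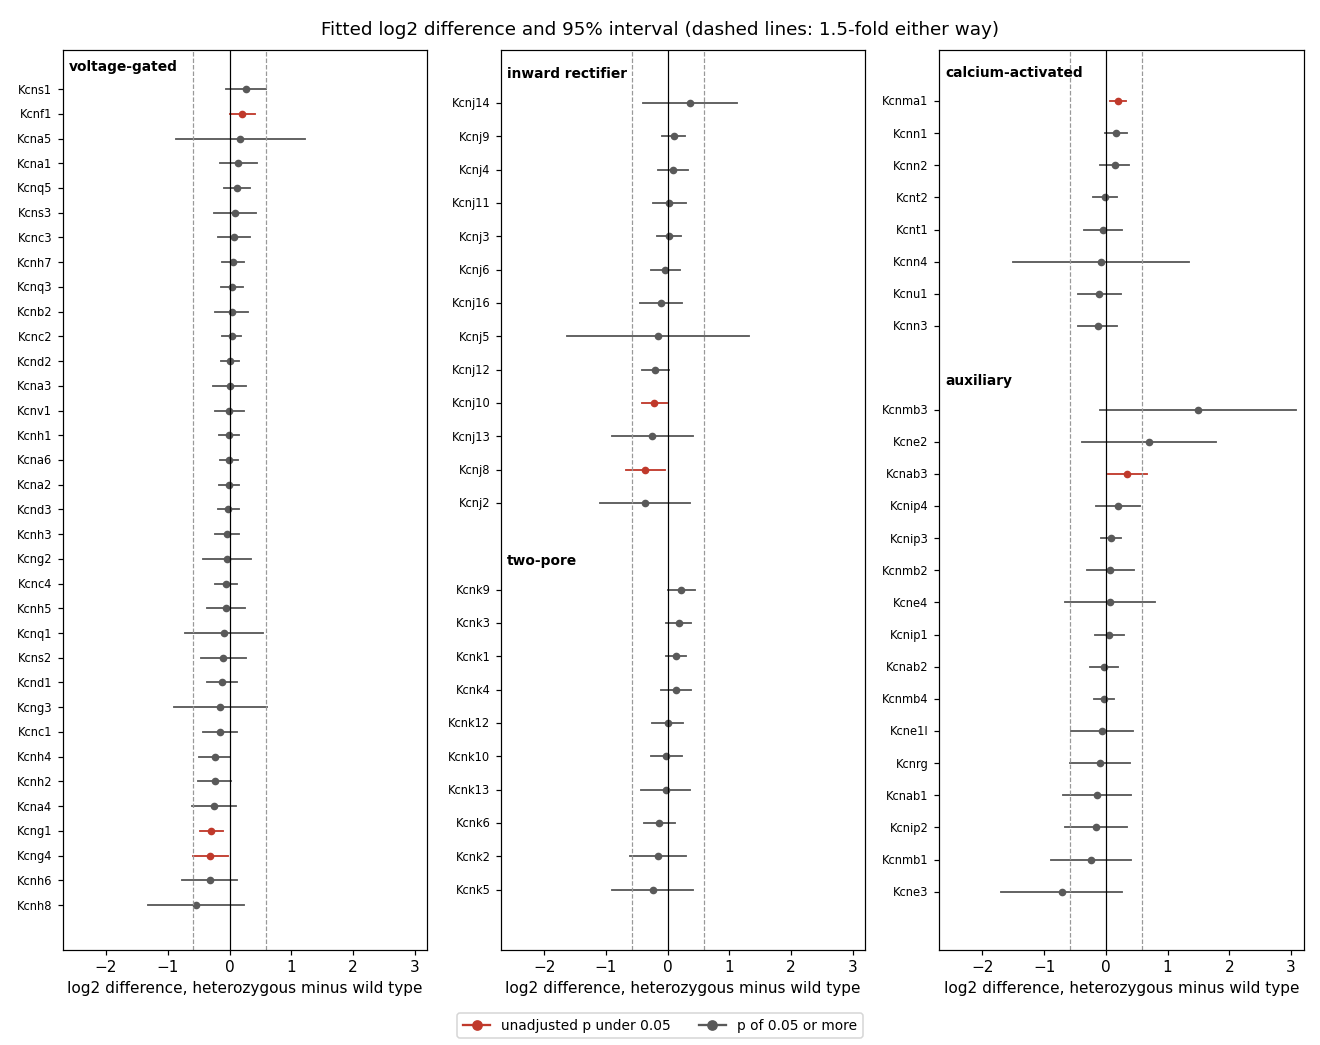
Log2 difference between heterozygous and wild type libraries for 81 of the 84 tested potassium channel genes (points) with 95% intervals from edgeR (lines), ordered within each class. The 7 genes at an unadjusted p under 0.05 are in red, none passed adjustment, and most intervals lie between the dashed lines at 1.5-fold either way.

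Among voltage-gated genes the smallest p belonged to Kcng1 (chr2:168260117-168281736, minus strand, GRCm38), a silent subunit that forms channels only together with Kcnb proteins. It stood at 13.7, 14.5 and 14.2 CPM in heterozygous libraries, against 18.5, 16.9 and 16.5 CPM in wild type libraries. All heterozygous values lay below all wild type values. The log2 difference was -0.29 (SE 0.08), with an unadjusted p of 0.0054 and an adjusted p of 0.789 in edgeR, and it lay between -0.33 and -0.24 when each library was left out in turn. Kcng4, another silent subunit, had 8.01, 6.49 and 6.64 CPM in heterozygous libraries, against 7.88, 8.43 and 9.93 CPM in wild type libraries. The groups overlapped through heterozygous replicate 1, and the log2 difference was -0.31 (SE 0.13, edgeR adjusted p 0.844). Without wild type replicate 3 it was -0.21 (SE 0.12).

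Kcnf1, a further silent subunit, named here after its values were seen, had 112, 123 and 99.4 CPM in heterozygous libraries, against 105, 91.6 and 92.5 CPM in wild type libraries. The groups overlapped, and the log2 difference was 0.21 (SE 0.09, edgeR adjusted p 0.855). It was 0.03 (SE 0.09) with the level of an immediate early gene list as covariate. Relative to the wild type mean, that list stood at log2 levels of 0.99, 1.03 and 0.22 in heterozygous libraries and 0.59, -0.11 and -0.48 in wild type libraries. All 12 of its genes had fitted differences above 0, so this covariate partly followed genotype. The most abundant channel-forming member of the class, Kcna2, had 361, 353 and 339 CPM in heterozygous libraries, against 356, 327 and 379 CPM in wild type libraries, so that the wild type range enclosed the heterozygous one. Kcnv1 showed the same overlap, with 267, 238 and 218 CPM in heterozygous and 240, 272 and 210 CPM in wild type libraries.

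None of the other voltage-gated genes had an unadjusted p under 0.05 in edgeR. Kcnc1 and Kcnc2, the fast channels of fast-spiking interneurons, had log2 differences of -0.15 (SE 0.12) and 0.03 (SE 0.07), and of -0.03 (SE 0.11) and -0.02 (SE 0.06) without wild type replicate 3. In the Kcnd genes of A-type current the differences lay between -0.12 for Kcnd1 and 0.01 for Kcnd2. Kcnq3 and Kcnq5 stood at 0.04 (SE 0.08) and 0.13 (SE 0.09). Among Kcnh genes, Kcnh2 and Kcnh4 each stood at -0.24 (SE 0.12 and 0.11), and Kcnh7, the most abundant of them, at 0.06 (SE 0.08). Without wild type replicate 3 the values of Kcnh2 and Kcnh4 were -0.10 (SE 0.09) and -0.13 (SE 0.10). Kcnh8 had the lowest value of the class, -0.55 (SE 0.34), at 0.294, 0.509 and 0.275 CPM in heterozygous libraries, against 0.508, 0.427 and 0.635 CPM in wild type libraries.

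Among inward rectifiers, Kcnj8 (chr6:142564837-142571614, minus strand), the pore of the ATP-sensitive channel of pericytes and vascular smooth muscle, had 2.96, 2.91 and 2.87 CPM in heterozygous libraries, against 4.27, 3.35 and 3.60 CPM in wild type libraries. The groups did not overlap, and the log2 difference was -0.36 (SE 0.14), with an unadjusted p of 0.0266 and an adjusted p of 0.838 in edgeR. Its regulatory partner Abcc9, the sulfonylurea receptor of the same channel, had 5.60, 5.01 and 5.93 CPM in heterozygous libraries, against 7.45, 6.42 and 8.12 CPM in wild type libraries, a log2 difference of -0.41 (SE 0.12, edgeR adjusted p 0.797). The neuronal counterpart of this pair, Kcnj11 with Abcc8, stood at log2 differences of 0.03 (SE 0.12) and -0.05 (SE 0.14). A list of 8 pericyte and smooth muscle markers had 7 members below wild type and 1 above. Its summed level was 248, 250 and 254 CPM in heterozygous libraries, against 315, 318 and 254 CPM in wild type libraries, and no marker was at 0, the lowest being Higd1b with a mean of 1.83 CPM. Endothelial markers summed to 125, 123 and 128 CPM in heterozygous libraries, against 141, 141 and 133 CPM in wild type libraries. All 6 markers of meningeal fibroblasts also had fitted differences below 0. They summed to 43.0, 38.5 and 40.4 CPM in heterozygous libraries, against 71.2, 88.4 and 41.5 CPM in wild type libraries. The part of vessel cell or meningeal content in the Kcnj8 values was not tested.

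Kcnj10 (chr1:172341210-172374085, plus strand), the main inward rectifier of astrocytes, had 177.7, 174 and 168 CPM in heterozygous libraries, against 228, 199 and 177.7 CPM in wild type libraries. The groups all but touched at heterozygous replicate 1 and wild type replicate 3. The log2 difference was -0.22 (SE 0.09), with an unadjusted p of 0.0359 and an adjusted p of 0.844 in edgeR, and leaving out each library in turn moved it between -0.30 and -0.12. All 7 astrocyte markers had fitted differences below 0, and their summed level was 4181, 4213 and 4536 CPM in heterozygous libraries, against 4588, 4456 and 4595 CPM in wild type libraries. The lowest of them, Aldh1l1, had a mean of 49.8 CPM, and the part of astrocyte content in the Kcnj10 values was not tested. This direction was not particular to astrocytes, as all 6 microglia and all 4 oligodendrocyte precursor markers were also below 0. All 6 oligodendrocyte markers were above 0, with sums of 9789, 11728 and 14335 CPM in heterozygous and 8093, 10621 and 9323 CPM in wild type libraries. Kcnj16, which joins Kcnj10 in glial channels, had a log2 difference of -0.11 (SE 0.15).

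The G protein-gated neuronal channels, opened by inhibitory transmitters, had differences no larger than about their error. Kcnj3 had 199, 183 and 162 CPM in heterozygous libraries and 191, 171 and 176 CPM in wild type libraries, a log2 difference of 0.02 (SE 0.09), with 31.1% of its exon bases shared with an antisense gene. Kcnj9 stood at 0.09 (SE 0.08) and Kcnj6 at -0.04 (SE 0.11). Kcnj4, a strong rectifier of forebrain neurons and the most abundant of the class per kb by the mean over all libraries, had 76.7, 80.3 and 77.8 CPM in heterozygous libraries, within the wild type range of 68.3, 64.5 and 89.0 CPM. Its log2 difference was 0.08 (SE 0.11). Without wild type replicate 3, its highest library, the heterozygous values all lay above wild type, with a difference of 0.24 (SE 0.06, edgeR adjusted p 0.408). Kcnj12, another strong rectifier, was below wild type in all comparisons of single libraries, with 6.49, 6.68 and 6.33 CPM in heterozygous libraries, against 7.01, 7.69 and 7.77 CPM in wild type libraries, and its log2 difference was -0.20 (SE 0.10). The rare Kcnj14 also did not overlap, with 0.348, 0.352 and 0.275 CPM in heterozygous libraries, against 0.260, 0.269 and 0.227 CPM in wild type libraries.

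Of the two-pore genes, Kcnk9 and Kcnk3 had the smallest p-values; they encode the acid-sensitive TASK leak channels. Kcnk9 had 170, 155 and 152 CPM in heterozygous libraries, against 156, 118 and 135 CPM in wild type libraries. These groups overlapped through wild type replicate 1, and the log2 difference was 0.22 (SE 0.10, edgeR adjusted p 0.855), running from 0.12 to 0.33 when each library was left out. Kcnk3 had 20.1, 17.1 and 16.8 CPM in heterozygous libraries, against 16.0, 15.3 and 16.4 CPM in wild type libraries. These groups did not overlap, with a log2 difference of 0.18 (SE 0.09, edgeR adjusted p 0.864) that ran from 0.09 to 0.22 when each library was left out. Kcnk1 had 158, 159 and 150 CPM in heterozygous libraries, against 134, 154 and 134 CPM in wild type libraries, and overlapped. The mechanosensitive TREK channel gene Kcnk2 had 65.2, 55.1 and 63.6 CPM in heterozygous libraries, within the wild type range of 49.9, 59.0 and 96.3 CPM, while its relatives Kcnk4 and Kcnk10 had log2 differences of 0.13 (SE 0.11) and -0.02 (SE 0.11).

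In the calcium-activated group the smallest p belonged to Kcnma1 (chr14:23289431-24014491, minus strand), the pore of the large-conductance BK channel that shortens spikes. It had 396, 390 and 388 CPM in heterozygous libraries, against 345, 341 and 340 CPM in wild type libraries. The spread within each genotype was far smaller than the gap between them. The log2 difference was 0.19 (SE 0.06), a fold of 1.14 with a 95% interval from 1.05 to 1.25, with an unadjusted p of 0.0072 and an adjusted p of 0.796 in edgeR. It lay between 0.18 and 0.20 when each library was left out in turn, with an unadjusted p under 0.05 each time. An antisense gene shares 6.0% of its exon bases. The BK accessory subunits gave other values: Kcnmb4, the neuronal one, had a log2 difference of -0.03 (SE 0.07), and Kcnmb2 one of 0.07 (SE 0.17). The Lrrc auxiliary proteins of BK channels stood at 0.05 (SE 0.08) for Lrrc55, 0.20 (SE 0.18) for Lrrc38 and 0.22 (SE 0.21) for Lrrc26.

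Kcnn1, a small-conductance SK channel gated by calmodulin, had 17.8, 18.3 and 18.3 CPM in heterozygous libraries, against 17.4, 15.4 and 15.9 CPM in wild type libraries. The groups did not overlap, and the log2 difference was 0.16 (SE 0.08, edgeR adjusted p 0.864). Kcnn2 and Kcnn3 stood at 0.14 (SE 0.11) and -0.13 (SE 0.14). Kcnt1 and Kcnt2, placed here by family although they open with intracellular sodium, had log2 differences of -0.04 (SE 0.14) and -0.01 (SE 0.09). Kcnt2 had 69.3, 62.2 and 68.9 CPM in heterozygous libraries and 71.6, 71.6 and 59.1 CPM in wild type libraries, which overlap. Kcnu1, a relative of Kcnma1 known from sperm and likewise placed here by family only, stood at -0.11 (SE 0.15).

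Of the auxiliary genes, Kcnab3, a cytoplasmic beta subunit of Kcna channels, had 82.4, 61.3 and 58.2 CPM in heterozygous libraries, against 44.7, 53.8 and 60.1 CPM in wild type libraries. The groups overlapped, and heterozygous replicate 1 was the highest of all libraries. The log2 difference was 0.35 (SE 0.14, edgeR adjusted p 0.844) and ran from 0.17 to 0.45 when each library was left out. Kcnab2, the most abundant beta subunit, had 234, 216 and 204 CPM in heterozygous libraries, within the wild type range of 207, 200 and 259 CPM. Kcnip3, a calcium-binding subunit of Kcnd channels, had 122, 124 and 108 CPM in heterozygous libraries and 108, 107 and 119 CPM in wild type libraries, a log2 difference of 0.08 (SE 0.07). The largest fitted value of the family belonged to Kcnmb3, with 1.49 (SE 0.70), and it ran from 1.10 to 2.79 when each library was left out. It had 0.152, 0.121 and 0.220 CPM in heterozygous libraries, against 0.130, 0.0225 and 0.0227 CPM in wild type libraries, of which the lowest lie under what 3 counts give. With 14, 10 and 20 counts in heterozygous and 11, 2 and 2 in wild type libraries, it needed the heterozygous libraries to pass the filter on low counts. That favours a difference above 0, so its size is no evidence of a change. Of the small single-span Kcne subunits, Kcne2 had 0.152, 0.121 and 0.176 CPM in heterozygous libraries, against 0.118, 0.0674 and 0.0907 CPM in wild type libraries. Kcne3 had 0.130, 0.121 and 0.143 CPM in heterozygous libraries, against 0.201, 0.292 and 0.159 CPM in wild type libraries. Neither overlapped, in opposite directions, and both intervals included 0. Kcne2, with 14, 10 and 16 counts in heterozygous and 10, 6 and 8 in wild type libraries, likewise needed its heterozygous libraries to pass the filter.

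**Figure D3:**
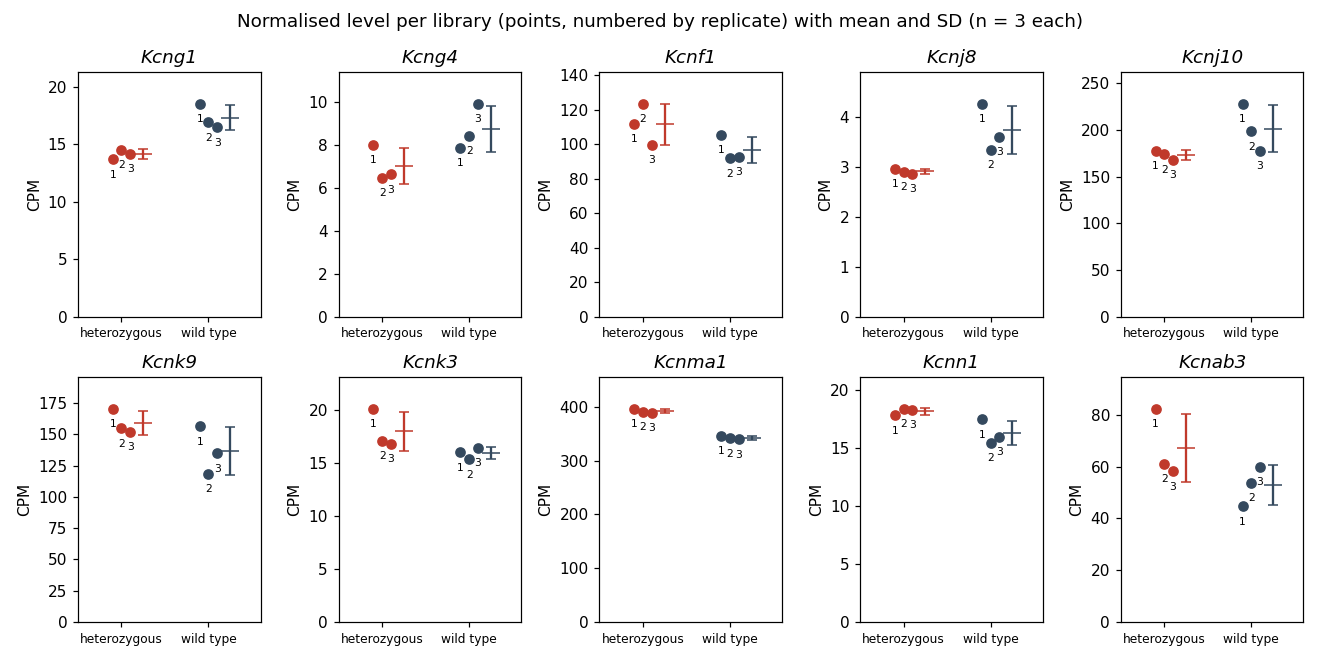
Normalised level in CPM of 10 potassium channel genes in each library (points, numbered by replicate), with mean and SD per genotype (n = 3 each). In Kcnma1 the heterozygous libraries at 388 to 396 CPM lie clear of the wild type ones at 340 to 345 CPM, whereas in Kcng4, Kcnf1, Kcnk9 and Kcnab3 the genotypes overlap.

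Proteins that partner these channels without being Kcn genes were followed in a list of 42 genes, of which 41 were tested. edgeR called 0 of them, DESeq2 also 0, and 5 had an unadjusted p under 0.05, or 12.2% against 5.83% of all genes. Of the 5, Calm2 stood above wild type and 4 below it. Those 4 were Abcc9, given above, and Htr1a, Akap5 and Hcn2. Htr1a, a serotonin receptor that opens G protein-gated channels, had 11.3, 11.8 and 12.6 CPM in heterozygous libraries, against 14.2, 17.6 and 15.1 CPM in wild type libraries, a log2 difference of -0.39 (SE 0.10, edgeR adjusted p 0.761). Akap5, a scaffold that holds kinases at channels, had 138, 140 and 134 CPM in heterozygous libraries, against 166, 147 and 188 CPM in wild type libraries, a log2 difference of -0.28 (SE 0.09) that ran from -0.37 to -0.19 when each library was left out. Hcn2, a cation channel opened by hyperpolarization, had 59.4, 53.1 and 57.2 CPM in heterozygous libraries, against 60.5, 62.3 and 81.0 CPM in wild type libraries, and its difference was -0.26 (SE 0.11), running from -0.34 to -0.12 when each library was left out. In all 4 genes the groups did not overlap. Over the list 5 genes met this condition, or 12.2% against 11.7% of all genes, close to the background. All 5 lay below wild type (background 5.85%) and 0 above it (background 5.88%).

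Some members varied widely between libraries. Of 53 members with a mean of 10 CPM or more, 12 had a highest library over 1.5 times their lowest among all 6 libraries, or 22.6% against 7.31% of 11225 genes at that level, a difference that was not tested. The widest was Kcnj2, a strong inward rectifier, with 17.2, 23.3 and 30.8 CPM in heterozygous libraries and 17.6, 26.6 and 47.9 CPM in wild type libraries. The beta subunit Kcnab1 had 79.0, 102 and 111 CPM in heterozygous libraries and 74.0, 90.7 and 159 CPM in wild type libraries. Kcnip2, a Kcnd subunit, had 93.9, 78.2 and 85.1 CPM in heterozygous libraries and 75.2, 70.8 and 141 CPM in wild type libraries. In each of these the top value was wild type replicate 3, as in 8 of the 12. How often that library came highest over all genes of like spread was not counted. Kcnip4 was lowest in it, at 62.7 CPM against 98.5 to 107 CPM in heterozygous and 101 to 104 CPM in the other wild type libraries.

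That library also had the highest striatal marker level, with log2 levels relative to the wild type mean of -1.41, -0.32 and 0.63 in heterozygous libraries and -1.56, -0.32 and 1.88 in wild type libraries. With that level as covariate the log2 difference of Kcnj2 was -0.14 (SE 0.07), against -0.37 (SE 0.32) with no covariate. For Kcnab1 it was 0.03 (SE 0.07) with the covariate, against -0.15 (SE 0.25). With the immediate early gene level as covariate, which partly followed genotype, the sign turned in both. The difference came to 0.52 (SE 0.22) for Kcnj2 and 0.45 (SE 0.22) for Kcnab1. For Kcns2, a silent subunit, the difference was 0.0033 (SE 0.09) with the striatal level as covariate, against -0.10 (SE 0.16) with no covariate. Over all settings run it lay between -0.27 and 0.28. Without wild type replicate 3 the differences were 0.10 (SE 0.22) for Kcnj2, 0.24 (SE 0.13) for Kcnab1, 0.23 (SE 0.08) for Kcnip2, 0.17 (SE 0.09) for Kcnk2 and -0.0023 (SE 0.06) for Kcnip4. Kcns1 stood at 0.41 (SE 0.13) and Kcna1 at 0.33 (SE 0.09) without it, against 0.26 (SE 0.15) and 0.14 (SE 0.14) with it. Without this library edgeR still called 0 members, and 10 had an unadjusted p under 0.05, against 6.69% of all genes. In 21 members the genotypes then did not overlap, against 22.6% of all genes.

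**Figure D4:**
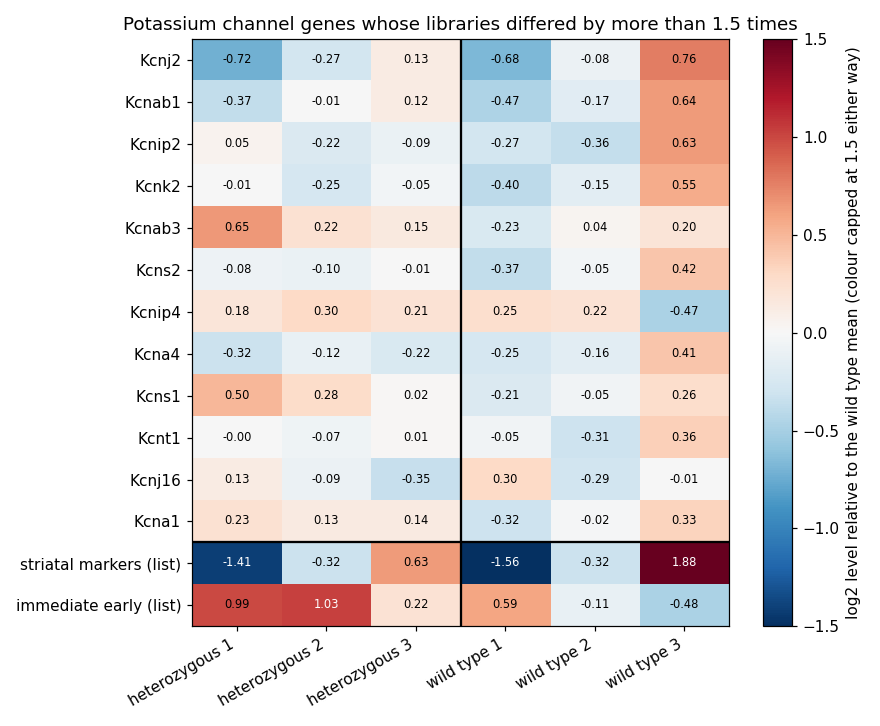
Log2 level in each library, relative to the wild type mean, of the 12 potassium channel genes with a mean of 10 CPM or more whose highest library was over 1.5 times the lowest, above the levels of the striatal and immediate early marker lists. Colour and printed value give the level; wild type replicate 3 is the reddest column for 8 of the 12 genes and for the striatal list, at 1.88.

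On chromosome 6, 5 members lie together with Setd5. Kcna1, Kcna5 and Kcna6 are 13.4 to 13.5 Mb from it, Kcnj8 29.4 Mb and Kcnd2 91.4 Mb. Their log2 differences were 0.14 (SE 0.14), 0.17 (SE 0.47), -0.01 (SE 0.06), -0.36 (SE 0.14) and 0.01 (SE 0.06) in that order, and so lay on both sides of 0. Kcna5 had 1.48, 1.84 and 3.98 CPM in heterozygous libraries, against 0.981, 1.93 and 3.56 CPM in wild type libraries, and was highest in the 2 libraries of high Xist count. Its log2 difference was 0.19 (SE 0.32) without these 2 libraries and 0.18 (SE 0.24) with high Xist count as covariate. It was 0.74 (SE 0.42) without wild type replicate 3 alone, which leaves a high Xist count in the heterozygous group only. With the immediate early gene level as covariate it was 1.46 (SE 0.24, edgeR adjusted p 0.616). Kcna6 shares 39.6% of its exon bases with an antisense gene, and reads of the 2 strands cannot be told apart with this library kit. The same holds for Kcnj13, where 49.1% of exon bases lie against Gigyf2, and for Kcnmb4 with 31.5%.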

How the data were processed

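RNA was extracted with Trizol, cleared of DNA with DNase I and turned into TruSeq v2 libraries, a kit that does not mark strand, per the labels' protocols. The authors deposited 1 table per library of raw read counts per gene. Per the submitters' processing notes they used FastQC, featureCounts, Bowtie2 2.3.4.3 and DESeq2, with mm10 and GRCm38.p6. Bowtie2 does not split reads over introns, so genes with short exons may be undercounted if the genome was searched. How reads of several matches and strand were set is not given in the sources used here. All 55450 identifiers matched GENCODE M21. Of the Kcn symbols, 5 belong to antisense RNAs and were left out.

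Counts were filtered with filterByExpr (minimum count 10, total 15), scaled by TMM and tested with edgeR 4.0.16 in R 4.3.3 (glmQLFit and glmQLFTest, no covariate, common biological coefficient of variation 16.1%), with Benjamini-Hochberg adjustment over 27939 genes. Log2 differences are heterozygous minus wild type, and 95% intervals come from that fit. CPM used effective library sizes. The level of a marker list averages log2 CPM over its genes, with a prior count of 1. DESeq2 1.42.0, limma 3.58.1 and sva 3.50.0 served as alternatives. The fit was also run on simulated counts with known changes, and the outcome is not given here. Every pair of libraries differed beyond counting noise (chi-square per gene 10.95 to 85.23). The value was 10.95 to 51.98 between heterozygous libraries, 44.48 to 85.23 between wild type libraries and 15.92 to 70.35 across genotypes. Some libraries of unlike genotype were thus closer than any pair of wild type libraries.

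The genes named were Setd5, the 2 members with the smallest p and the 2 with the highest CPM per kb in each class, any other member at an unadjusted p under 0.05 without overlap, and the 4 partner genes with the smallest p; other genes are named to describe a group and were chosen after their values were seen. The members, lists and rules were chosen with earlier results of these data known. A few members enter the counts but are not reported here by name.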

Additional observations from a re-analysis of the deposited data

How the results depend on the processing

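edgeR, DESeq2 and limma called 0 potassium channel genes under every alternative run, also at an adjusted p under 0.1, with a smallest adjusted p of 0.233. Of 459 values of named genes over these settings, 429 kept direction and side of the threshold, 26 turned direction and 4 passed the threshold. None of those 4 belonged to a potassium channel gene. The main fit called no named gene, so keeping the side of the threshold only meant staying uncalled. Those that turned direction follow, and the cause was not tested. Kcna2 came to 0.0066 with limma-voom quality weights, 0.0043 with a surrogate variable and 0.0659 without the 2 libraries of high Xist count, and -0.0695 to 0.0416 with each library left out. Kcnab2 came to 0.0366, 0.0226 and 0.144 in these settings, 0.0024 with the striatal and 0.0442 with the immediate early level as covariate, and -0.0989 to 0.0999 with each library left out. Kcnk2 came to 0.0230 with quality weights, 0.0246 with a surrogate variable, 0.300 with the immediate early level, 0.143 without the high-Xist libraries, and -0.340 to 0.172 with each library left out. Kcnv1 came to 0.0028 with limma-voom, 0.00239 with high Xist count as covariate and -0.0887 to 0.0930 with each library left out. Under the same leaving out, Kcnj4 ran from -0.0114 to 0.237 and Kcnt2 from -0.0992 to 0.0356.

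Without the high-Xist libraries the median log2 difference was 0.0594 over all members, 0.0901 for auxiliary, 0.0804 for inward rectifier and 0.106 for two-pore genes; 12 members had an unadjusted p under 0.05 (10 higher, 2 lower, background 7.89%) and 34 did not overlap (background 39%). The calcium-activated median was 0.0619 with a surrogate variable, 0.0983 with the immediate early level and -0.0523 to 0.0740 with each library left out. The inward rectifier median was 0.0083 with quality weights and -0.185 to 0.0307 with each library left out. The two-pore median was 0.127 with every counted gene kept, 0.0365 with quality weights, 0.0519 with a surrogate variable and -0.0144 to 0.0806 with each library left out. Leaving out each library gave 3 to 13 members at an unadjusted p under 0.05 and 12 to 21 without overlap (background 17.5% to 26.3%). Calls over all genes numbered 6 with every counted gene kept, 63 with DESeq2, 29 with the likelihood ratio test of edgeR, 2 with quality weights, 1 at an adjusted p under 0.1 and 0 to 2 with each library left out.

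High or low Xist count per library as covariate, chosen after seeing the data, gave 0 calls and 7 members at an unadjusted p under 0.05 (background 7.27%).

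No paired analysis was possible because the replicate numbers were given in record order and pair no libraries. With 3 libraries a genotype, the depth and spread leave rare members with intervals wider than 1.5-fold either way. Some well expressed members had such intervals too, although 54 of the 62 with a mean of 5 CPM or more stayed within 1.5-fold. For Kcnab1, with a mean of 103 CPM, the interval of the log2 difference ran from -0.70 to 0.40.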
